A study of Saccharomyces cerevisiae with 4 samples.

Results

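The 10 genes described here encode the cytosolic Hsp70 and Hsp110 chaperones of budding yeast, Saccharomyces cerevisiae, together with the J-protein that works with the ribosome-bound Hsp70s. They were taken by their standard symbols and mapped to the open reading frame name of each array probe, and all 10 were found among the 6256 genes of the array. They are SSA1 (YAL005C), SSA2 (YLL024C), SSA3 (YBL075C), SSA4 (YER103W), SSB1 (YDL229W), SSB2 (YNL209W), SSZ1 (YHR064C), ZUO1 (YGR285C), SSE1 (YPL106C) and SSE2 (YBR169C). Each had 1 probe, spotted at 2 places on every array.

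Hsp70 proteins bind exposed hydrophobic stretches of other proteins in a cycle driven by ATP. J-proteins (Hsp40s) stimulate the ATP hydrolysis, and nucleotide exchange factors, among them the Hsp110 proteins Sse1 and Sse2, release the ADP. In yeast cytosol Ssa1 and Ssa2 are the constitutive Hsp70s, while SSA3 and SSA4 are known as genes of stressed or slowly growing cells. Ssb1 and Ssb2 sit on the ribosome and meet nascent chains, where Zuo1, a J-protein, and Ssz1, an atypical Hsp70, form the ribosome-associated complex that stimulates them. SSB1 and SSB2 transcripts are known to follow those of ribosomal protein genes and to fall on heat shock.

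RNA was compared on 2-colour oligonucleotide arrays between 4 conditions: a parental strain labelled BY4741 in glucose, the same strain in glycerol, a mutant labelled DampERG12 in glucose, and that mutant in glycerol. ERG12 encodes mevalonate kinase, of which the mutant kept 10% of the parental activity per the labels, and both carbon sources were given at 20 g/L in synthetic medium at 30 °C. The labels differ on the last step before extraction, given as 1 h in the new carbon source, as growth to an optical density of 0.5, and as 1 h in rich medium at pH 2.5, and all 4 conditions share whichever applied. Each of 4 comparisons had 2 arrays, described as biological duplicates: glycerol over glucose in the parental strain and in the mutant, and mutant over parental in glucose and in glycerol. How many clones the mutant label covers was not given in the sources used here.

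The condition named first carried Cy5 on every array, with no dye swap, and any preference of a probe for one dye enters its ratios. All arrays lay on 1 slide with a separate column for each comparison, and the slide column cannot be told apart from the comparison. BY4741 is known as a strain deleted for HIS3, LEU2, MET17 and URA3. HIS3 and LEU2 were well above background in 0 of 8 parental and 0 of 8 mutant channels, but MET17 in 8 of 8 of both. The place of the MET17 probe in the gene is not known here, and whether its signal reflects the genotype was not tested. For URA3 it was 8 of 8 mutant channels but 3 of 8 parental ones, and 0 of 4 where an array held parental RNA alone, so URA3 signal differed with the strain, and whether by genotype was not tested. ERG12 was well above background in 5 of 8 parental and 1 of 8 mutant channels. The median signal of a channel lay between 133 and 743 scanner units, 0 gene spots were saturated, and the number of arrays limits the precision. Ratios are log2 of Cy5 over Cy3 after loess normalization, so each is relative to the average gene of its array. When arrays were centred on the 10 spike-in probes instead, the median of all genes moved to -2.20 in the parental glycerol response and -1.35 in that of the mutant. It moved to -1.58 for the strains in glucose and -0.69 in glycerol, and the ratios at which the spikes were mixed were not given in the sources used here. The spike-in scale also differed between duplicates. On the parental response arrays the gene median after this centring was -2.54 on one and -1.89 on the other.

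**Figure D1:**
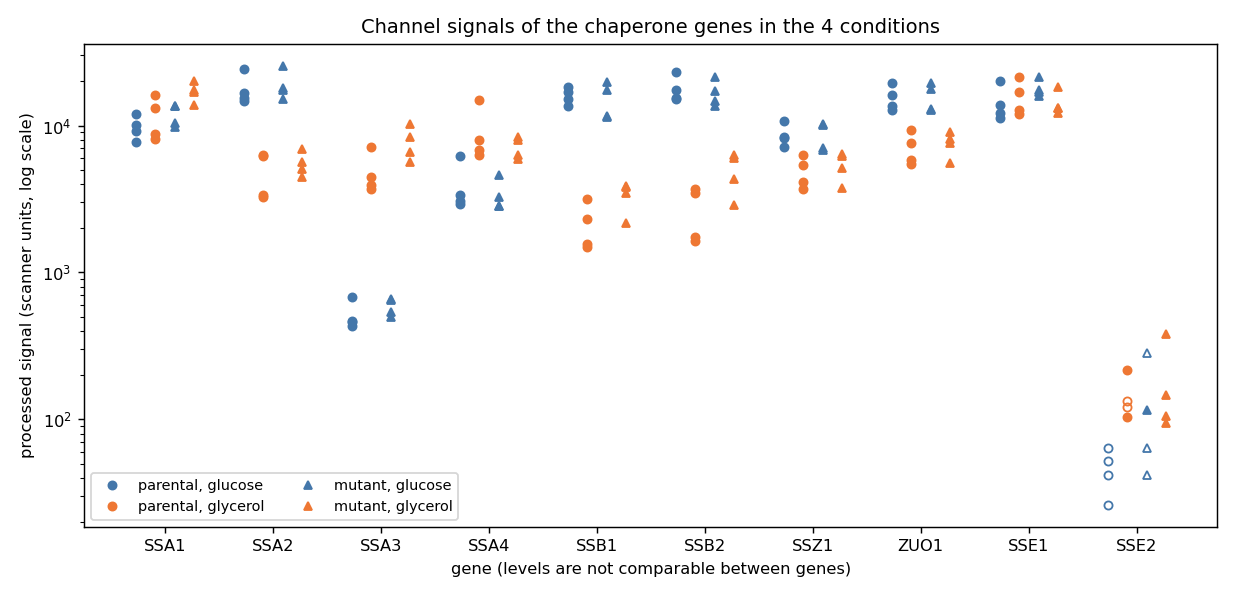
Scanner-processed signal (log axis, scanner units) of each chaperone gene in the 4 channels of each condition, with circles for the parental strain, triangles for the mutant, blue for glucose and orange for glycerol; open symbols were not well above background on both spots. Within each strain, SSA2, SSB1, SSB2, SSZ1 and ZUO1 signals in glycerol lie below all of their glucose signals. Those of SSA3 and SSA4 lie above, SSA4 only narrowly in the parental strain (6256 against 6239 scanner units). SSE2 was well above background in all 4 channels only in mutant glycerol.

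Of the 10 genes, 9 were well above background in all 16 channels. SSE2, a paralog of SSE1 known as stress-induced, was dim, with signals from 26.2 to 383 scanner units. It was well above background in 0 of 4 parental glucose, 2 of 4 parental glycerol, 1 of 4 mutant glucose and 4 of 4 mutant glycerol channels, and entered the test only through the last. In bulk RNA, fewer cells with a transcript and less of it per cell cannot be told apart. Both spots of a probe lay close, with median gaps between them from 0.03 on the log2 scale for SSA1 to 0.12 for SSA3, and the widest gap was 0.50 for SSE2.

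The parental glycerol response shows how the chaperone transcripts stood in glycerol in cells with normal mevalonate kinase. The family split. SSA3 and SSA4 rose, SSA2, SSB1, SSB2, SSZ1 and ZUO1 fell, and SSA1, SSE1 and SSE2 lay near the average gene. In limma, 9 of 10 genes passed an adjusted p under 0.05, 4 higher and 5 lower, where 62% of the 5343 genes tested passed, 31.4% higher and 30.5% lower. The 4 higher include the dim SSE2, which was well above background in 0 of 4 parental glucose channels. The median of the 10 genes was -0.16, beside -0.01 for all genes, and their range ran from -2.92 to 3.01. In the authors' deposited table this comparison carries the opposite sign to the scanner ratios (r = -0.964 across genes), and the direction used here is that of the dyes.

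**Figure D2:**
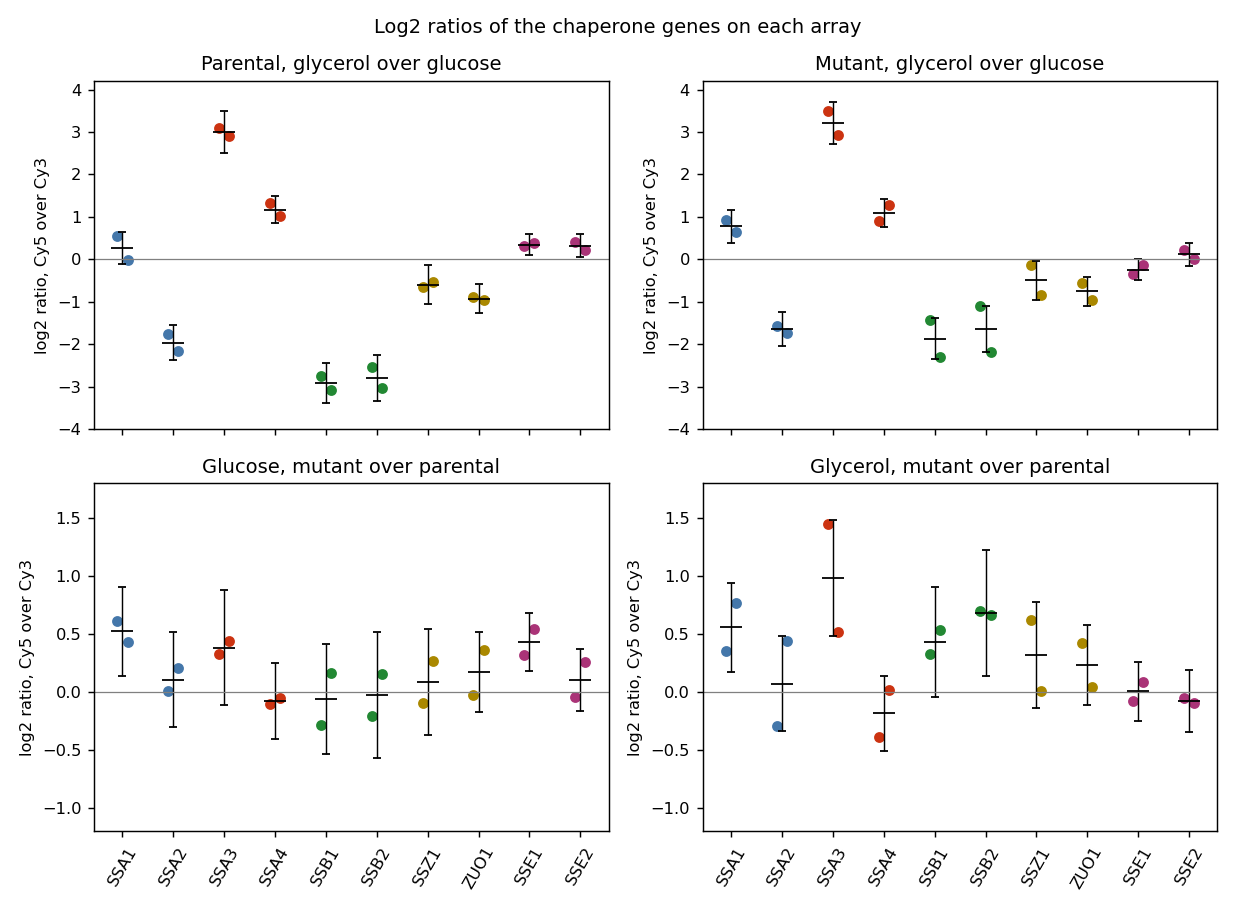
Log2 ratio of each chaperone gene on both arrays of each comparison (points), with the fitted mean (bar) and its 95% interval from limma (whiskers); the upper and lower panels have different vertical scales. In both glycerol responses SSA3 stands near 3 and SSB1 and SSB2 lie lowest with SSA2, while the strain ratios all lie between -0.38 and 1.45.

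SSA3 had the highest ratio of the 10. It stood at 3.10 on one array and 2.91 on the other, a rise of 3.01 ± 0.22 (log2, SE, n = 2 arrays, adjusted p = 1.34e-05), or 8.03-fold. Its processed signal was 432 to 680 scanner units in the 4 parental glucose channels and 3709 to 7134 in the 4 parental glycerol channels. With arrays centred on spikes it stayed above 0, at 0.60, on a scale where the gene medians of these 2 arrays were -2.54 and -1.89. Only 79 of the 5343 genes had a higher ratio. Each SE given with a ratio here comes from a variance pooled over all 8 arrays, while n counts the arrays of the comparison.

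SSA4, the other stress-type gene, rose less. Its ratios were 1.32 and 1.03, with a mean of 1.17 ± 0.14 (log2, SE, n = 2 arrays, adjusted p = 0.000201), or 2.25-fold, though on the spike-in scale it stood at -1.24, above the median of all genes there. SSA4 was already bright in glucose, at 2930 to 6239 scanner units, and reached 6256 to 14943 in parental glycerol. SSA3 exceeded SSA4 by 1.78 and 1.88 on the 2 arrays, so these probes did not report 1 shared ratio.

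The constitutive SSA genes parted. SSA2 stood at -1.77 and -2.17 and fell by 1.97 on the log2 scale (SE 0.18, n = 2 arrays, adjusted p = 4.23e-05), which is 3.91-fold lower. SSA1 stood at 0.56 on one array and -0.03 on the other, with a mean of 0.27 ± 0.17 (adjusted p = 0.196, 95% interval from -0.12 to 0.65). SSA1 exceeded SSA2 by 2.33 and 2.14 on the 2 arrays. These genes are close copies, and how far their probes share signal was not analysed here, but any shared part did not level this gap.

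The ribosome-bound SSB genes were among the lowest of all. SSB1 stood at -2.76 and -3.09 and fell by 2.92 on the log2 scale (SE 0.21, n = 2 arrays, adjusted p = 1.23e-05), 7.58-fold lower, and only 3 of the 5343 genes had a lower ratio. Its processed signal was 13642 to 18391 scanner units in parental glucose and 1481 to 3141 in parental glycerol. SSB2 stood at -2.55 and -3.02 and fell by 2.79 on the log2 scale (SE 0.24, adjusted p = 3.07e-05). SSB1 and SSB2 differed by only 0.21 and 0.06 in size on the 2 arrays, SSB1 being the lower on both. Each array thus gave nearly the same ratio for both genes, and signal shared between their probes cannot be told apart from like changes.

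The partners of the Ssb proteins on the ribosome fell less. ZUO1 stood at -0.89 and -0.96 and fell by 0.93 on the log2 scale (SE 0.15, n = 2 arrays, adjusted p = 0.000941). SSZ1 stood at -0.66 and -0.53 and fell by 0.59 on the log2 scale (SE 0.20, adjusted p = 0.0301). The SSZ1 call was lost without either parental glycerol array, at adjusted p = 0.12 and 0.204. The complex and the chaperones it stimulates thus lay on the same side of the average gene, with the SSB genes far lower.

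The Hsp110 genes changed little. SSE1, the main exchange factor of the family, stood at 0.30 and 0.38, a mean of 0.34 ± 0.11 (log2, SE, n = 2 arrays, adjusted p = 0.0256), but at 0.19 in the scanner's processed values (adjusted p = 0.254), -0.14 after median centring and -2.20 on the spike-in scale. Its direction therefore depends on the scaling. SSE2 stood at 0.41 and 0.22, and its glucose signal was not well above background on either array while glycerol was on 1 of 2. It stood at 0.32 in the fit (adjusted p = 0.0414), 1.98 in the scanner's processed values and -1.15 on the spike-in scale. With glycerol itself at background on 1 array, no bound on the fold can be given. For so dim a probe the size of the ratio rests on the background correction.

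**Figure D3:**
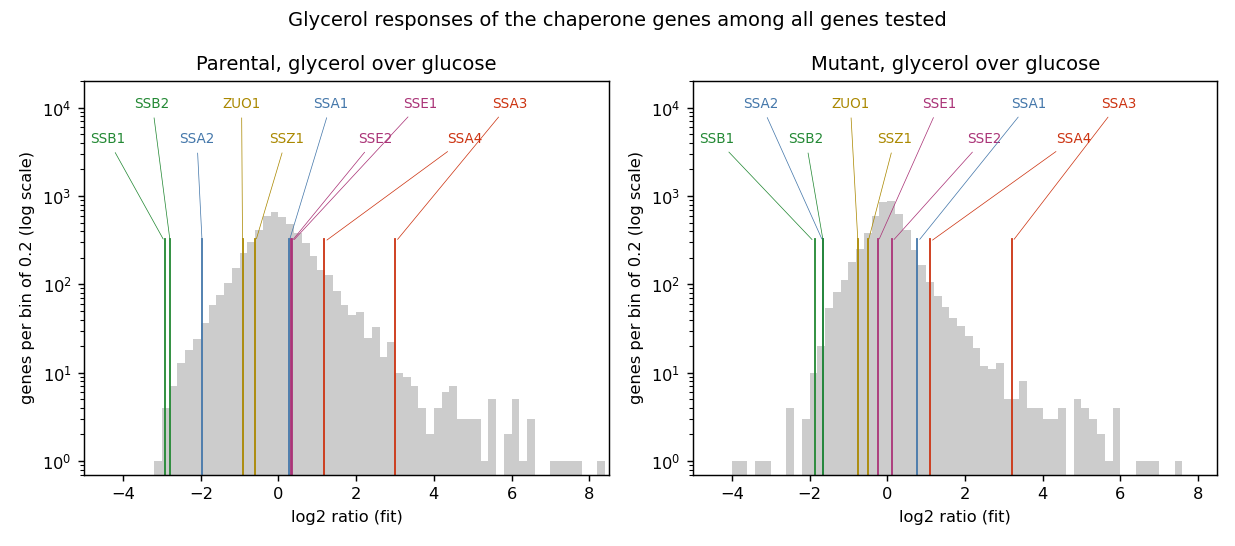
Number of genes (log axis) in bins of 0.2 of the fitted log2 ratio for the parental (left) and mutant (right) glycerol response over all 5343 genes tested, with a vertical line at each chaperone gene. SSB1 has 3 genes below it and SSB2 has 6 in the parental strain, against 14 and 35 in the mutant. SSA3 has 79 genes above it in the parental strain and 52 in the mutant.

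The rule for these genes sets SSA3 and SSA4 against SSB1 and SSB2. The mean ratio of the stress-type genes exceeded that of the ribosome-bound genes by 4.86 and 5.02 on the parental glycerol arrays. In the mutant the same gap was 3.47 and 4.34. No parental array lay below a mutant array, but the responses of the strains also did not overlap for 49.8% of all genes. For mutant over parental the gap was 0.36 and 0.03 in glucose and 0.02 and -0.33 in glycerol, so it was small between the strains. Its means there, 0.20 and -0.16, lay closer together than those of the responses, 4.94 in the parental strain and 3.91 in the mutant. These are differences between ratios of 4 genes on 2 arrays a comparison and carry no test.

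In the mutant the glycerol response had the same outline. SSA1, SSA3 and SSA4 rose, and SSA2, SSB1, SSB2 and ZUO1 fell, while SSZ1, SSE1 and SSE2 did not pass. In limma 7 of 10 genes were called, 3 higher and 4 lower, where 46.6% of all genes passed, 24.7% higher and 21.9% lower. The median of the 10 genes was -0.37, beside 0.02 for all genes.

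SSA3 stood at 3.50 and 2.92 on the mutant arrays, a rise of 3.21 ± 0.22 (log2, SE, n = 2 arrays, adjusted p = 2.22e-05), or 9.24-fold. SSA4 stood at 0.91 and 1.27, a rise of 1.09 ± 0.14 (adjusted p = 0.000553) that was -0.11 on the spike-in scale. SSA1 stood at 0.92 and 0.63, a mean of 0.78 ± 0.17 (adjusted p = 0.00603), or 1.71-fold, but was at -0.58 on the spike-in scale and lost its call without the first of these arrays (adjusted p = 0.0704). Both SSA1 ratios were higher than either parental one.

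SSA2 stood at -1.56 and -1.73 and fell by 1.65 on the log2 scale (SE 0.18, n = 2 arrays, adjusted p = 0.000216). SSB1 stood at -1.43 and -2.31 and fell by 1.87 on the log2 scale (SE 0.21, adjusted p = 0.000246), or 3.66-fold. SSB2 stood at -1.10 and -2.19 and fell by 1.64 on the log2 scale (SE 0.24, adjusted p = 0.000868), or 3.12-fold. The SD between the mutant arrays was 0.62 for SSB1 and 0.77 for SSB2. The SEs and p-values use a variance pooled over all 8 arrays and do not measure the spread of these arrays alone. The mutant arrays differed from each other by more than the parental ones for both SSB genes, and neither reached the parental values.

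ZUO1 stood at -0.55 and -0.95 and fell by 0.75 on the log2 scale (SE 0.15, n = 2 arrays, adjusted p = 0.00425), with the call lost without the second array (adjusted p = 0.0745). SSZ1 stood at -0.15 and -0.85, with a mean of -0.50 ± 0.20 (adjusted p = 0.0719). SSE1 stood at -0.34 and -0.15, with a mean of -0.24 ± 0.11 (adjusted p = 0.105). SSE2 stood at 0.21 and 0.01, with a mean of 0.11 ± 0.12 (adjusted p = 0.455), and was again at background in the glucose channel of both arrays.

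Between the strains in glucose, none of the 10 genes was called. In limma 0 of 10 passed the adjusted threshold, where 7.04% of all genes did (3.5% higher and 3.54% lower). An unadjusted p under 0.05 was found for 2, and the share of all genes at that looser threshold is not given here. Those 2 were SSA1 and SSE1, named after their values were seen. SSA1 stood at 0.62 and 0.44, with a mean of 0.53 ± 0.17 (adjusted p = 0.0977, 95% interval from 0.14 to 0.91). SSE1 stood at 0.32 and 0.55, with a mean of 0.43 ± 0.11 (adjusted p = 0.0561, 95% interval from 0.18 to 0.69). Both genes were higher in the mutant on both arrays, and a dye effect would enter each ratio alike.

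The 95% intervals of the other genes all included 0 in glucose. SSA3 stood at 0.33 and 0.44, and its 95% interval ran from -0.11 to 0.88. SSA4 stood at -0.10 and -0.05, with an interval from -0.40 to 0.25. SSB1 stood at -0.29 and 0.17 and SSB2 at -0.21 and 0.16, so their sign differed between the arrays. The interval of SSB1 ran from -0.54 to 0.42 and that of SSB2 from -0.57 to 0.52. SSA2, SSZ1, ZUO1 and SSE2 had means between 0.09 and 0.17.

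Between the strains in glycerol, SSA3 was the 1 gene of the 10 that passed, close to the threshold. In limma 1 of 10 was called higher and 0 lower, where 4.12% of all genes were called, 3.24% higher and 0.88% lower. An unadjusted p under 0.05 was found for 3 of 10, and the share of all genes at that looser threshold is not given here. SSA3 stood at 1.45 on one array and 0.52 on the other, with a mean of 0.98 ± 0.22 (log2, SE, n = 2 arrays, adjusted p = 0.0464), or 1.98-fold. Without the first of these arrays it was 0.52 (adjusted p = 0.529). The call was also lost without either parental response array (0.0904) or either glucose strain array (0.0905), with the scanner's processed values (0.0639), with median centring (0.0569), with spike-in centring (0.308) and with no filter on dim genes (0.071), all adjusted p. Its processed signal in mutant glycerol, 5613 to 10312 scanner units, overlapped that in parental glycerol.

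SSA1 and SSB2 had an unadjusted p under 0.05 in glycerol without passing the adjusted threshold. SSA1 stood at 0.35 and 0.77, with a mean of 0.56 ± 0.17 (adjusted p = 0.119). SSB2 stood at 0.70 and 0.67, with a mean of 0.68 ± 0.24 (adjusted p = 0.165), and SSB1 at 0.33 and 0.53, with a mean of 0.43 ± 0.21 (adjusted p = 0.287). All of these were higher in the mutant on both arrays. SSA4 stood at -0.38 and 0.02, SSA2 at -0.29 and 0.44, SSZ1 at 0.63 and 0.01, ZUO1 at 0.42 and 0.05, and SSE1 at -0.07 and 0.09. SSE2 stood at -0.05 and -0.09, with the parental channel above background on 1 of 2 arrays.

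Whether the strains differed in their response to glycerol was asked in both ways the design allows. One is the mutant response minus the parental response, and the other is the strain ratio in glycerol minus that in glucose. Both estimate 1 quantity from different arrays, free of any constant dye preference, although the same RNA extracts may lie on both sets. In limma 0 of 10 genes passed in the first, where 1.87% of all genes did (0.861% higher and 1.01% lower), and 0 of 10 in the second, where 0.0187% did, all higher. At an unadjusted p under 0.05 there were 3 of 10 in the first and 1 of 10 in the second. The shares above are at the adjusted threshold and are no background for these counts.

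**Figure D4:**
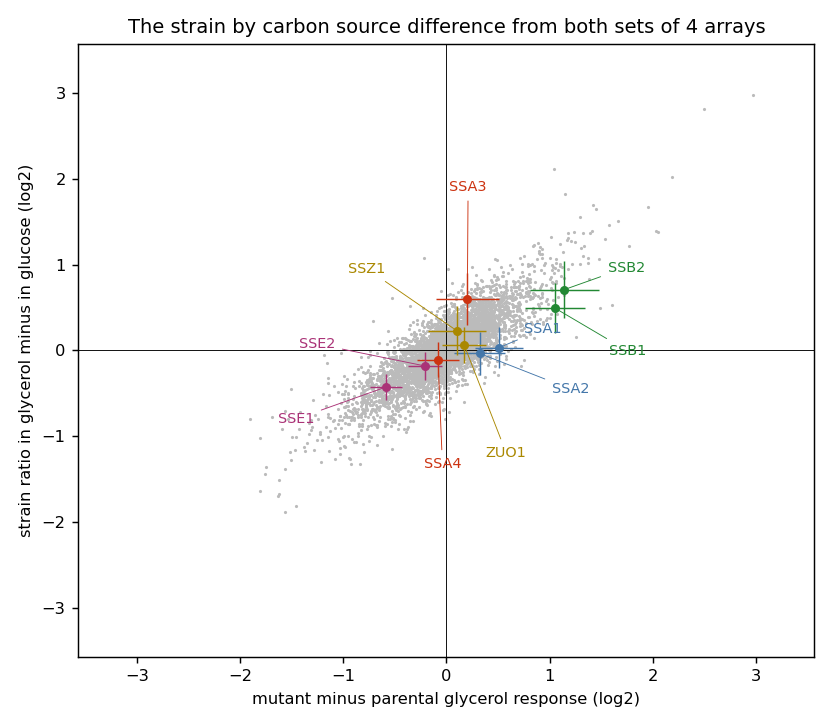
The strain by carbon source difference of every gene tested (grey) and of the chaperone genes (colour, with SE bars), as mutant minus parental glycerol response (horizontal, log2) and as strain ratio in glycerol minus that in glucose (vertical, log2). SSB1 and SSB2 lie above 0 and SSE1 below 0 on both axes, none of them past the adjusted threshold.

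In the first form SSB2 and SSB1 had the largest differences of the 10, and in the second SSB2, SSA3 and SSB1. The SSB1 response was 1.05 ± 0.29 (log2, SE, adjusted p = 0.0972) higher in the mutant, and its strain ratio 0.49 ± 0.29 (adjusted p = 0.397) higher in glycerol. For SSB2 these were 1.14 ± 0.33 (adjusted p = 0.107) and 0.71 ± 0.33 (adjusted p = 0.30). SSE1 lay on the other side, with -0.59 ± 0.16 (adjusted p = 0.0877) and -0.43 ± 0.16 (adjusted p = 0.211). The arrays compared did not overlap for 6 of 10 genes in the first form, beside 49.8% of all genes, and for 5 of 10 in the second, beside 53.4%. SSB1, SSB2, SSE1 and SSE2 were the 4 of 10 with neither overlapping and the same sign in both, which held for 33.6% of all genes, so these shares are near the background. SSE2 counts for little among them, being well above background in 0 of 4 parental and 1 of 4 mutant glucose channels. When both forms were joined in a single loop fit, SSB1, SSB2 and SSE1 passed, at 0.77 (adjusted p = 0.0359), 0.93 (adjusted p = 0.0249) and -0.51 (adjusted p = 0.0122), as did 19.3% of all genes. In that fit p-values may be too small if extracts were shared.

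The stress-type genes did not pass either. SSA3 was at 0.20 ± 0.31 and 0.60 ± 0.31 in the 2 forms and SSA4 at -0.08 ± 0.20 and -0.11 ± 0.20. The 95% interval of SSA3 ran from -0.50 to 0.91 in the first form and from -0.11 to 1.30 in the second, and that of SSA4 from -0.54 to 0.38 and from -0.57 to 0.35. SSA1 was at 0.51 ± 0.24 and 0.03 ± 0.24, and SSA2 at 0.32 ± 0.25 and -0.03 ± 0.25. The second form minus the first was -0.48 for SSA1, -0.36 for SSA2, 0.39 for SSA3, -0.56 for SSB1 and -0.44 for SSB2, all wider than the SD of this gap over all genes, 0.23, while the other 5 genes lay within it.

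Co-chaperones of the cytosolic Hsp70s were called in both directions, in the parental response about as often as all genes. Of 14 J-proteins, exchange factors and adaptors tested, 6 rose and 3 fell in the parental glycerol response, beside 31.4% higher and 30.5% lower over all genes. The highest were the J-protein genes CAJ1 at 1.15 ± 0.13 (adjusted p = 0.000138) and DJP1, which serves peroxisomal import, at 0.95 ± 0.12 (adjusted p = 0.000261). The lowest were JJJ1, a J-protein of ribosome assembly, at -0.69 ± 0.17 (adjusted p = 0.00855) and CNS1, a co-chaperone that also binds Hsp90, at -0.64 ± 0.16 (adjusted p = 0.00765). In the mutant response 2 rose and 2 fell, beside 24.7% higher and 21.9% lower over all genes, the same 4 genes standing at the ends. CAJ1 was at 0.63 ± 0.13, DJP1 at 0.41 ± 0.12, JJJ1 at -0.61 ± 0.17 and CNS1 at -0.97 ± 0.16 (adjusted p from 0.00159 to 0.0233). On the spike-in scale CAJ1 stood at -1.22 and -0.71 and DJP1 at -1.37 and -0.92 in the 2 responses, so their rises are relative to the average gene.

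Between the strains 1 of the 14 co-chaperone genes was called in glucose and 0 in glycerol, beside 7.04% and 4.12% of all genes. The 1 was DJP1 at 0.59 ± 0.12 (adjusted p = 0.0288), which was -0.97 on the spike-in scale, followed by the J-protein gene XDJ1 at 0.44 ± 0.28, and SNL1, a membrane-bound exchange factor, was lowest at -0.12 ± 0.11, ahead of APJ1 at -0.02 ± 0.21. In glycerol JJJ1 at 0.37 ± 0.17 and YDJ1, the main cytosolic J-protein, at 0.18 ± 0.18 were highest, and APJ1 at -0.55 ± 0.21 and XDJ1 at -0.44 ± 0.28 lowest. In the mutant minus parental response 0 of the 14 passed, where 1.87% of all genes did. The list median was -0.38, beside 0.01 for all genes. SIS1, a J-protein gene essential for growth, was lowest at -0.76 ± 0.21 (adjusted p = 0.0946), ahead of APJ1 at -0.56 ± 0.29, and JJJ2 at 0.20 ± 0.15 and JJJ3 at 0.12 ± 0.16 were highest. In the strain ratio in glycerol minus that in glucose 0 passed as well, where 0.0187% of all genes did. XDJ1 at -0.89 ± 0.40 and DJP1 at -0.77 ± 0.17 were lowest there, and JJJ1 at 0.30 ± 0.24 and JJJ3 at 0.01 ± 0.16 highest. At an unadjusted p under 0.05 there were 4 of 14 and 2 of 14, and the share of all genes at that threshold is not given here.

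The nascent polypeptide-associated complex also meets chains leaving the ribosome. Of its 3 genes 1 fell in the parental response, EGD2 at -0.63 ± 0.16 (adjusted p = 0.00835), where 30.5% of all genes fell. EGD1 stood at -0.06 ± 0.12 and BTT1 at -0.14 ± 0.10. None of the 3 passed in the other comparisons. Of all genes 46.6% passed in the mutant response, and 7.04% in glucose and 4.12% in glycerol between the strains. EGD2 was at -0.33 ± 0.16 in the mutant response, 0.06 ± 0.16 between the strains in glucose and 0.44 ± 0.16 in glycerol (adjusted p = 0.174). BTT1 was at 0.14 ± 0.10, -0.28 ± 0.10 (adjusted p = 0.118) and -0.06 ± 0.10 in these comparisons, the opposite sign to EGD2 in each. EGD1 was at -0.07 ± 0.12, 0.10 ± 0.12 and 0.15 ± 0.12.

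Among regulators of heat shock and stress genes, HSF1 and MSN2 rose in both responses and MSN4 in neither. HSF1, the heat shock transcription factor gene, stood at 0.47 ± 0.11 in the parental strain (adjusted p = 0.00756) and 0.45 ± 0.11 in the mutant (adjusted p = 0.0136). MSN2, which encodes a general stress activator, stood at 0.56 ± 0.13 (adjusted p = 0.0049) and 0.98 ± 0.13 (adjusted p = 0.000506). MSN4 was at 0.11 ± 0.11 and -0.21 ± 0.11. On the spike-in scale HSF1 stood at -1.94 and -0.74 and MSN2 at -1.86 and -0.21, above the median of all genes there. Between the strains in glucose MSN2 was at -0.48 ± 0.13 (adjusted p = 0.059), HSF1 at -0.19 ± 0.11 and MSN4 at 0.31 ± 0.11, and in glycerol MSN2 was at -0.29 ± 0.13, HSF1 at -0.16 ± 0.11 and MSN4 at 0.03 ± 0.11.

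Of 3 regulators of ribosomal protein genes, FHL1 was too dim to be tested. IFH1 fell in both responses, at -0.42 ± 0.13 (adjusted p = 0.0248) and -0.45 ± 0.13 (adjusted p = 0.0232). SFP1 stood at -0.32 ± 0.20 and -0.04 ± 0.20 and did not pass. Neither passed between the strains, where IFH1 was at 0.39 ± 0.13 in glucose (adjusted p = 0.11) and 0.03 ± 0.13 in glycerol. SFP1 was at -0.03 ± 0.20 in glucose and 0.07 ± 0.20 in glycerol.

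The Hsp70 and Hsp110 genes of other compartments moved in both directions. SSC1, the main mitochondrial Hsp70 gene, rose in both responses, by 1.12 ± 0.17 (adjusted p = 0.000732) and 0.95 ± 0.17 (adjusted p = 0.00284). SSQ1, the mitochondrial Hsp70 of iron-sulfur cluster assembly, rose by 0.57 ± 0.12 (adjusted p = 0.00362) and 0.63 ± 0.12 (adjusted p = 0.00344). On the spike-in scale SSC1 stood at -1.59 and -0.64 and SSQ1 at -1.83 and -0.56. LHS1, an Hsp110-type exchange factor of the endoplasmic reticulum, fell by 0.48 and 0.47 on the log2 scale (adjusted p = 0.00628 and 0.0103). ECM10, a mitochondrial paralog of SSC1, stood at 0.07 ± 0.14 and 0.27 ± 0.14, and KAR2, the Hsp70 of the endoplasmic reticulum, at -0.25 ± 0.24 and 0.22 ± 0.24. Of these 5 genes 0 passed between the strains in limma, where 7.04% of all genes did in glucose and 4.12% in glycerol. Their ratios ran from -0.18 for ECM10 to 0.29 for SSC1 in glucose. In glycerol they ran from 0.09 for LHS1 to 0.14 for SSC1. An unadjusted p under 0.05 was found for 0 of 5 in either carbon source.

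The genes with the most similar ratios over the 8 arrays differed between the members. Likeness was the root mean square difference of log2 ratios, over 4 comparisons with 2 arrays each. Nearest to SSB2 was RPS4A, a ribosomal protein gene, at 0.18, closer than SSB1 at 0.20, and nearest to SSB1 outside the family was RPA190, a subunit gene of RNA polymerase I, at 0.28. Next came ARO4 at 0.28 and GLY1 at 0.30 for SSB2, and GLY1 and RPS4A at 0.31 each for SSB1. Nearest to SSA2 were the ribosomal protein genes RPL20A at 0.17 and RPL35B at 0.22, followed by MIS1 at 0.235. The median distance of all genes was 1.70 from SSB2, 1.79 from SSB1 and 1.33 from SSA2.

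Other members had other neighbours. ZUO1 lay nearest to NAN1 and IMP3, genes of ribosome assembly, at 0.08 each, followed by PRS3 at 0.09. SSZ1 lay nearest to VTS1 at 0.07 and to TIF3, a translation initiation factor gene, at 0.12, followed by MAP1 at 0.13. SSA3 lay nearest to ENA2 at 0.39, GDH3 at 0.40 and the gluconeogenic FBP1 at 0.42, where the median gene lay at 2.28. SSA4 lay nearest to SMN1 at 0.15, SSA1 to GPB2 at 0.22, SSE1 to VBA4 at 0.09 and SSE2 to APC2 at 0.07. SSA3 and SSA4 were 1.59 apart, further than the median gene lay from SSA4, at 0.87, but nearer than it lay from SSA3, at 2.28.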

How the data were processed

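Per the file headers, Agilent Feature Extraction 10.10.1.1 made the deposited intensity values, that is median spot and local background brightness in both channels and processed signals scaled between the dyes. The deposited log10 ratios of processed signals and the deposited 0 or 1 flags come from it too, per the file headers. The authors' deposited table holds 1 log2 value per probe and comparison, made with limma per the submitters' processing notes, with centring unstated. Its slopes on the loess values, -0.969, 1.01, 0.936 and 1.00, were near 1 in size, as base 2 gives, its column medians were 0.06, -0.05, -0.03 and -0.02, and the first column was turned to follow the dyes.

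In R 4.3.3 with limma 3.58.1, median signals were corrected by normexp (offset 50, which draws dim ratios towards 0) and by loess within arrays, and both spots were averaged. Genes with both spots well above background in every channel of at least 1 condition were kept, 5343 of 6256. One coefficient per comparison was fitted over 8 arrays (4 residual degrees of freedom) with eBayes and Benjamini-Hochberg adjustment at 0.05. The fit was tested on simulated data. The variance of a gene was pooled over all 8 arrays, so its SE is the same in each of the 4 comparisons. Replicate arrays correlated across genes at r = 0.953 and 0.898 for the parental and mutant responses and 0.716 and 0.511 for the strains in glucose and glycerol. Of the array's genes 5756 matched the RefSeq gene table (assembly R64), used for names only. Members and lists were chosen with earlier results of these data known. All 10 members are named, with the 2 highest and 2 lowest genes of other lists in each comparison (all of a list of 6 or fewer), and up to 3 nearest genes per member. For lists of 6 or fewer, some strain ratios are given as ranges. Their differences between responses or between strain ratios are left out. Alternatives changed the background correction, normalization, filter, spots, model and arrays.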

Additional observations from a re-analysis of the deposited data

Results flagged for a closer look

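SSE1 was higher in glycerol on both parental arrays and lower on both mutant arrays. The difference, mutant minus parental response, was -0.59 ± 0.16 (log2, SE, limma adjusted p = 0.0877) and did not pass the adjusted threshold. Over the alternatives tried it ran from -0.68 without 1 mutant array to 0.55 on the spike-in scale, where the median of all genes for this difference was 0.97.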

How the results depend on the processing

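The directions of SSA2, SSA3, SSB1, SSB2, SSZ1 and ZUO1 in the parental glycerol response held under every alternative tried. So did those of SSA2, SSA3, SSB1, SSB2 and ZUO1 in that of the mutant. Changing the filter, blocking on slide row and leaving out arrays of other comparisons left these ratios unchanged and could not turn them. Spike-in centring moved the median of all genes down, so of these genes it could have turned only SSA3. With no array left out, between 8 and 10 of the 10 genes were called in the parental response, beside 54% to 96.4% of all genes. In the mutant it was between 7 and 8, beside 36.8% to 89.2% of all genes. Fewer were called in the parental response without either of its arrays. Centring on spike-in probes turned SSA4 to -1.24, SSE1 to -2.20 and SSE2 to -1.15 in the parental response and SSA1 to -0.58 and SSA4 to -0.11 in the mutant, and median centring turned SSE1 to -0.14 in the parental response. With spike-in centring 10 genes were called between the strains in glucose and 2 in glycerol, all lower, beside 99.4% and 54.3% of all genes. It called 8 in the difference between the responses and 6 in that between the strain ratios, all higher, beside 52.2% and 42.1% of all genes. In glucose 1 gene, SSE1, was called with no filter and 1 in the loop fit, beside 6.01% and 18.1% of all genes. In glycerol 0 were called with the scanner's processed signals, with median centring and with no filter. The loop fit called 3 there, beside 13.7% of all genes. Leaving out 1 array at a time gave 0 to 2 in glycerol, and 0 to 2 for the difference of the responses. The 2 in the latter were SSB1 at 1.49 (adjusted p = 0.034) and SSB2 at 1.69 (adjusted p = 0.0297), without the second mutant glycerol array. For the difference of the responses 1 gene, SSB1 at 1.53 (adjusted p = 0.049), was called with median centring, beside 4.83% of all genes. The loop fit called 3 in either difference, beside 19.3% of all genes. The gap of SSA3 and SSA4 over SSB1 and SSB2 in the parental response was 5.38 in the scanner's processed signals, 5.21 with a normexp offset of 10 and 4.81 in the authors' deposited table. The call of SSE1 in the parental response was lost without either of its arrays, in the scanner's processed signals and with median centring. That of SSE2 was lost without either of its arrays, either mutant response array (adjusted p = 0.051) or either glycerol strain array (0.057), with the second spot only (0.0916) and with slide row as a block (0.0564). Apart from spike-in and median centring, where the construction shifts the median of all genes, the cause of these shifts was not tested. The labels number no replicates, and slide row, a place on the slide, was the only block; it ended no other call. Signal over background limits SSE2 alone of the 10 genes.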
